A study of Mus musculus with 6 samples.

Results

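The genes described here carry fatty acids into the liver cell, burn them in mitochondria and peroxisomes and turn them into ketone bodies, together with the regulators of these steps. They were chosen by name: 49 genes were listed, and a gene entered when a probe set of the array's annotation named it and no other gene. Of the 49, 48 had such a probe set, and the other 1 was not analysed here. All 48 passed the filter on dim probe sets and were among the 12705 genes tested. The probe set with the highest mean over the arrays stood for each gene.

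RNA came from the livers of 6 male mice, 3 Retnla-Tg mice (Tg 5, Tg 6 and Tg 7) and 3 Retnla-non-Tg mice (non-Tg 1, non-Tg 2 and non-Tg 3). Both groups had the C57BL6/J background, were 3 months old, and ate a diet of 21% fat and 0.15% cholesterol for 4 weeks from the age of 8 weeks. Retnla codes for a resistin-like protein that cells release. The sources used here do not give the promoter that drives the transgene or the number of founder lines. Each mouse gave 1 Affymetrix mouse expression array, so the mouse is the replicate, and the values are log2 signals of a probe set, whose brightness cannot be set against that of another probe set.

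Long-chain fatty acids enter hepatocytes with the help of CD36 and the FATP transporters, are carried by fatty acid binding proteins and are activated to acyl-CoA. Mitochondria take them up through the carnitine shuttle and shorten them by beta-oxidation. Peroxisomes shorten very long, branched and dicarboxylic chains with enzymes of their own. The nuclear receptor PPARA, which pairs with RXR at repeated AGGTCA-like half-sites, drives most of these genes in fasting and in fat feeding.

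Promoter windows from RefSeq (GRCm38.p6; 250 bases before to 50 after a start) were at hand for 41 of the 48 genes, as 45 windows, and were searched on both strands. A loose form of the PPARA element, a direct repeat of AGGNCA with 1 base between the copies, lay in 1 of the 45 windows, that of Fabp1, and in 0.381% of all 32851 windows. The stricter repeat of AGGTCA, spaced alike, lay in 0 of the 45 and in 0.0396% of all. The half-site AGGTCA, which overlaps some of those repeats, lay in 11 of the 45 windows (24.4%), belonging to 10 genes, and in 16.3% of all windows. The windows below are shown because they hold the repeat (Fabp1), or a half-site in a gene whose limma p before adjustment was under 0.05. They run 5′ to 3′ along the gene's strand, and capitals mark the repeat or, in the others, the half-site, read on either strand.
Fabp1, chr6:71199629-71199928, plus strand: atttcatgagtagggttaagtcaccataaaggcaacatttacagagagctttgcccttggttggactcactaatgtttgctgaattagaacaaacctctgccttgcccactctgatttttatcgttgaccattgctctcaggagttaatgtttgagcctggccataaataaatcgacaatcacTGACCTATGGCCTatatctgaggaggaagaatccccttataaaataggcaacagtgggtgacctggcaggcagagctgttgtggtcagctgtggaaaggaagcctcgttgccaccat
Acadm, chr3:153944594-153944893, minus strand: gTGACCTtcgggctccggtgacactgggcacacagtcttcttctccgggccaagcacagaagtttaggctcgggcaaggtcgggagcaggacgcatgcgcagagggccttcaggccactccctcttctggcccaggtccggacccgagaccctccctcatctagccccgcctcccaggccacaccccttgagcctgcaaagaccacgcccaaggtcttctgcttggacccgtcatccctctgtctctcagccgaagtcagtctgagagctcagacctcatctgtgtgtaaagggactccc
Cd36, chr5:17835847-17836146, minus strand: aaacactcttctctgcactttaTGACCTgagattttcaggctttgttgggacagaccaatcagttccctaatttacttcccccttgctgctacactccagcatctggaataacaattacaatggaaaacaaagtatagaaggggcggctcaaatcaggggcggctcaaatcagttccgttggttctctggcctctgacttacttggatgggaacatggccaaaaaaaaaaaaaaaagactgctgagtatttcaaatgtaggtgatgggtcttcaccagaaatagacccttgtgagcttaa
Acot12, chr13:91741271-91741570, plus strand: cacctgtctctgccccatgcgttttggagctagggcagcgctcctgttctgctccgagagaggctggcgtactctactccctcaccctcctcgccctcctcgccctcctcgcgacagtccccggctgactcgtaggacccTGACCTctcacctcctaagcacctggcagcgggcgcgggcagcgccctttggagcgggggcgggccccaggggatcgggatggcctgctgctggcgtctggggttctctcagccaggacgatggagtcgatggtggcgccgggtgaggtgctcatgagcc
Creb3l3, chr10:81092542-81092841, minus strand: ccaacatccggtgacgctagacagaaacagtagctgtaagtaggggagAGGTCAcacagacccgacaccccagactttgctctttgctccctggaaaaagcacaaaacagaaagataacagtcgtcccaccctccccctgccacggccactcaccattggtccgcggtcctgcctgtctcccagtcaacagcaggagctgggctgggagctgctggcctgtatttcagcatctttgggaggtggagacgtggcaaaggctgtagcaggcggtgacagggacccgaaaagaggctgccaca

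The marked repeat of Fabp1 begins at base -67 from the start and reads TGACCTATGGCCT on the gene's strand. A match is a description of letters and does not show that a factor binds there.

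The arrays themselves were checked first. Retnla, the transgene's own product, had log2 signals of 16.04, 15.91 and 16.04 in Tg 5, Tg 6 and Tg 7, against 6.03, 7.41 and 6.48 in non-Tg 1, non-Tg 2 and non-Tg 3, and so matched the labels. By the bioC control, a bacterial transcript added before hybridization, the arrays fell into 2 sets: 9.57 to 9.71 for non-Tg 1, Tg 5 and Tg 6, and 10.98 to 11.27 for non-Tg 2, non-Tg 3 and Tg 7. Each set holds both groups, in unequal numbers. The 5′ minus 3′ signal of the actin control also split this way, at -0.81 to -0.73 in the lower set and -1.19 to -1.09 in the higher one. That of the Gapdh control did not, at 0.19 to 0.34 in the lower set and 0.25 to 0.29 in the higher one. In a fit with both terms, 38 of the 48 genes were higher in the higher bioC set, by a median of 0.15, while all genes had a median of -0.02. Tg and non-Tg livers are therefore compared over all 6 mice, within each set, and in a fit that takes the set as a block.

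No gene of the set passed the test between Tg and non-Tg livers. Over all genes, 2 of 12705 passed (0.0157%; limma with an intensity trend, Benjamini-Hochberg adjusted p under 0.05), and 0 of the 48 did. Their limma adjusted p ran from 0.653 to 1.00. Yet most lay lower in the Tg livers: 38 of 48 (79.2%) had a difference below 0, with a median log2 difference of -0.17, against 6092 of 12705 genes (47.9%) and a median of 0.01 over all genes tested. At an unadjusted limma p under 0.05, 17 of the 48 were lower (35.4%) and 1 was higher, where 3.12% and 2.93% of all genes were. The groups did not overlap for 10 lower genes (20.8%) and 2 higher ones, where 5.64% and 6.04% of all genes did not. With 3 mice against 3, no overlap gives an exact permutation p of 0.1 by construction, so it adds no test. The 48 genes are expressed in the same cells of the same 6 mice, so they are not independent of one another and their number is not a sample size.

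That count of 17 depends strongly on the setting. It was 4 without non-Tg 3, 9 without non-Tg 2, 9 without Tg 5, 10 without Tg 6 and 3 without the intensity trend, and it ran from 3 to 21 over 19 alternatives, while the count of genes below 0 ran from 33 to 42 and the median from -0.24 to -0.15. Signal level moved with the difference too. Among the 1260 genes with a mean log2 signal over 12, 791 were lower (62.8%), with a median of -0.04. That limit was chosen after the values were seen. Of the 1260, 108 were lower at an unadjusted limma p under 0.05 (8.57%) and 140 were lower without overlap (11.1%). The 35 genes of the set above that limit had a median of -0.25, and 28 were lower. Of the 35, 16 were lower at that p (45.7%) and 9 were lower without overlap (25.7%). Differences were small throughout: 1 of the 48 passed 2-fold, and 22 lay within 0.2 of 0, with a median SE of 0.12.

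**Figure D1:**
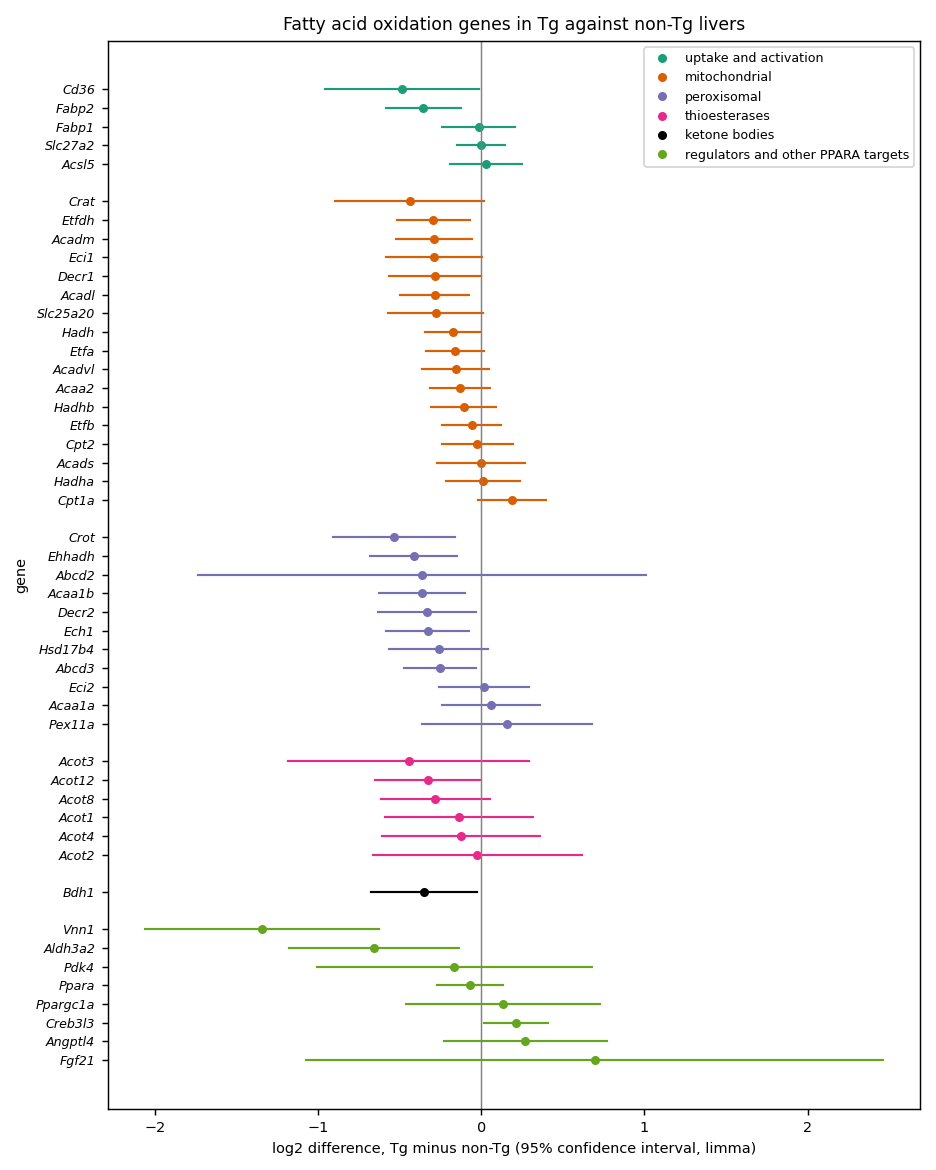
Log2 difference between Tg and non-Tg livers for the 48 genes, grouped by compartment. Points are differences and bars their 95% confidence intervals from limma. Most points of the mitochondrial and peroxisomal groups lie left of 0, Vnn1 lies farthest left at -1.34, and the bar of Fgf21 is the widest.

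Of the 5 measured genes of fatty acid uptake and activation 4 were below 0, and 2 of them, Fabp2 and Cd36, at an unadjusted limma p under 0.05 (3.12% of all genes). The median was -0.01. Fabp1, the main fatty acid binding protein of hepatocytes, whose promoter window holds the repeat shown above, had log2 signals of 16.29, 16.52 and 16.57 in non-Tg 1, non-Tg 2 and non-Tg 3 and 16.54, 16.27 and 16.53 in Tg 5, Tg 6 and Tg 7. The groups overlapped fully, and the difference was -0.01 ± 0.10 (SE; 95% confidence interval -0.24 to 0.21). Slc27a2, the transporter and very-long-chain acyl-CoA synthetase FATP2, lay between 15.51 and 15.60 on all 6 arrays, a difference of -0.00 ± 0.07 (SE). Acsl5, an acyl-CoA synthetase, differed by 0.03 ± 0.10 (SE).

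Fabp2 and Cd36 had the larger differences. Fabp2, a fatty acid binding protein best known from the intestine, had 13.31, 13.55 and 13.61 in the non-Tg mice and 13.08, 13.21 and 13.11 in the Tg mice. All 3 Tg values lay below all 3 non-Tg values, by -0.35 ± 0.10 (SE; limma adjusted p = 0.735). Cd36, the scavenger receptor that takes up fatty acids, had 10.54, 11.03 and 11.25 in the non-Tg mice and 10.28, 10.82 and 10.27 in the Tg mice. Tg 6 lay above non-Tg 1, so the groups overlapped, and the difference was -0.49 ± 0.21 (SE; limma adjusted p = 0.807). It rests on the higher bioC set, where Cd36 differed by -0.87, while in the lower set it differed by 0.01. Its other probe sets gave -0.45 and -0.58.

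In the mitochondrial group 15 of 17 genes were below 0. Centring each array on its median, which shifts every difference by the same amount, put Hadha below 0 too. Other settings turned genes the other way. Quantile normalization put Acads and Cpt2 above 0, and the mean of probe sets did so for Cpt2, Etfdh and Hadhb. The group's median was -0.16 (-0.18 and -0.09 within the lower and higher bioC sets). At an unadjusted limma p under 0.05, 5 of the 17 were lower (29.4%), where 3.12% of all genes were. The groups did not overlap for 6 genes on the lower side, 35.3% of the group, and for 1 on the higher side, where 5.64% and 6.04% of all genes showed this. The carnitine shuttle comes first in the pathway. Cpt1a, the outer-membrane carnitine palmitoyltransferase that controls entry, was the 1 on the higher side, with 13.39, 13.25 and 13.40 in the non-Tg and 13.66, 13.45 and 13.48 in the Tg mice. All 3 Tg values lay above, by 0.19 ± 0.09 (SE; limma adjusted p = 0.815), and by 0.13 without Tg 5. Its other probe sets gave 0.15 and -0.06.

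Slc25a20, the carnitine-acylcarnitine translocase, differed by -0.28 ± 0.13 (SE) with overlapping groups, and Cpt2, the inner-membrane transferase, by -0.02 ± 0.10 (SE), which turned to 0.82 with its second probe set. Crat, which makes short-chain acylcarnitines in mitochondria and peroxisomes, had 9.19, 9.35 and 9.34 in the non-Tg and 9.03, 8.44 and 9.10 in the Tg mice. Here the Tg values lay below without overlap (-0.44 ± 0.20, SE; limma adjusted p = 0.807). Tg 6 lay well under the other Tg mice, and without it the difference was -0.23. The other Crat probe sets gave 0.08 and 0.24.

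Beta-oxidation opens with the acyl-CoA dehydrogenases, each for a range of chain lengths. Acadm, for medium chains, had 14.16, 14.25 and 14.39 in the non-Tg and 13.80, 14.01 and 14.12 in the Tg mice, a difference of -0.29 ± 0.10 (SE; limma adjusted p = 0.787). Acadl, for long chains, had 13.52, 13.60 and 13.72 against 13.21, 13.36 and 13.41, a difference of -0.28 ± 0.09 (SE; limma adjusted p = 0.779). Neither gene's groups overlapped, and both were lower within each bioC set, Acadm by -0.25 and -0.21 and Acadl by -0.23 and -0.25. Acadvl, for very long chains, differed by -0.16 ± 0.09 (SE), and Acads, for short chains, by -0.00 ± 0.12 (SE), both with overlap.

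The dehydrogenases hand their electrons to the electron transfer flavoprotein, and its oxidoreductase passes them to the respiratory chain. Etfdh, that oxidoreductase, had 12.84, 13.04 and 13.03 in the non-Tg and 12.61, 12.65 and 12.77 in the Tg mice, without overlap (-0.29 ± 0.10, SE; limma adjusted p = 0.779). A second Etfdh probe set, near the filter's limit, gave 0.46 ± 0.50 (SE). Etfa, the alpha subunit of the flavoprotein, had 13.86, 13.90 and 13.82 against 13.68, 13.67 and 13.75, again without overlap, by -0.16 ± 0.08 (SE; limma adjusted p = 0.814). Its partner Etfb overlapped and differed by -0.06 ± 0.08 (SE).

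Hydration, a second oxidation and thiolysis complete each turn of the mitochondrial spiral. Hadh, the short-chain hydroxyacyl-CoA dehydrogenase, had 15.37, 15.43 and 15.46 in the non-Tg and 15.23, 15.16 and 15.35 in the Tg mice, without overlap (-0.18 ± 0.08, SE; limma adjusted p = 0.807). Its probe set carries the suffix _x_at, which Affymetrix gives where probes may bind other transcripts, and its other probe sets gave -0.31 ± 0.10 (SE), also without overlap, and -0.0039 ± 0.20 (SE), with overlap. Acaa2, the mitochondrial thiolase, had 14.80, 14.94 and 14.93 against 14.76, 14.67 and 14.85, with overlap, by -0.13 ± 0.08 (SE). Hadha and Hadhb, the subunits of the trifunctional protein, differed by 0.01 and -0.11. The other Hadhb probe sets gave -0.26, with overlap, and 0.67 ± 0.25 (SE), with the Tg values above without overlap.

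Auxiliary enzymes handle double bonds. Decr1, the mitochondrial dienoyl-CoA reductase, had 13.37, 13.64 and 13.67 in the non-Tg and 13.08, 13.25 and 13.50 in the Tg mice. Tg 7 lay within the non-Tg range, and the difference was -0.28 ± 0.13 (SE; limma adjusted p = 0.807), or -0.18 in the fit with the block and -0.19 without Tg 5. Eci1, the mitochondrial enoyl-CoA isomerase, differed by -0.29 ± 0.13 (SE), with overlap.

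Of the peroxisomal genes 8 of 11 were below 0. Centring each array on its median put Acaa1a and Eci2 below 0 too. The mean of probe sets put Acaa1a below 0 and Abcd3 above it. The group, in which Ech1 and Eci2 were placed by choice, had a median of -0.33, which was the difference of Ech1. Within the lower and higher bioC sets that median was -0.15 and -0.18, and the fit with the block gave -0.24. At an unadjusted limma p under 0.05, 6 of the 11 were lower (54.5%), where 3.12% of all genes were. The groups did not overlap for 2 of the 11 on the lower side (18.2%) and 0 on the higher. Over all genes these shares were 5.64% and 6.04%. Whether the peroxisomal median differs from the mitochondrial one was not tested.

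Ehhadh, the bifunctional enzyme of the inducible peroxisomal pathway, had log2 signals of 13.58, 13.90 and 13.54 in the non-Tg and 13.11, 13.33 and 13.34 in the Tg mice. The groups did not overlap, and the difference of -0.41 ± 0.12 (SE; limma adjusted p = 0.735) was nearly equal within the lower and higher bioC sets, at -0.36 and -0.38. Crot, which exports shortened chains as acylcarnitines, had 13.49, 14.21 and 13.73 against 13.23, 13.16 and 13.44, also without overlap, by -0.53 ± 0.17 (SE; limma adjusted p = 0.741). Non-Tg 2 stood far above the other non-Tg mice for Crot, and without it the difference was -0.33. Within the sets Crot differed by -0.29 and -0.53.

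For the thiolase Acaa1b, which ends each peroxisomal cycle, the signals were 15.68, 16.08 and 16.05 in the non-Tg and 15.52, 15.46 and 15.74 in the Tg mice. Tg 7 lay just above non-Tg 1, and the difference was -0.36 ± 0.12 (SE; limma adjusted p = 0.776). Ech1, a dienoyl-CoA isomerase, had 13.96, 14.09 and 14.15 against 13.58, 13.66 and 13.98, by -0.33 ± 0.11 (SE; limma adjusted p = 0.782). The overlap again came from Tg 7 and non-Tg 1.

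Decr2, the peroxisomal dienoyl-CoA reductase, had 12.53, 12.63 and 12.79 in the non-Tg and 12.06, 12.35 and 12.53 in the Tg mice (-0.33 ± 0.13, SE; limma adjusted p = 0.807). Abcd3, a transporter that brings acyl-CoA into the peroxisome, had 14.45, 14.59 and 14.77 against 14.30, 14.30 and 14.46 (-0.25 ± 0.10, SE; limma adjusted p = 0.791). Tg 7 touched the lowest non-Tg value for both, and without Tg 5 Decr2 differed by -0.21. A second Abcd3 probe set, near the filter's limit, gave 0.39 ± 0.51 (SE). Hsd17b4, the other bifunctional enzyme, had 14.00, 14.41 and 14.29 against 13.75, 13.97 and 14.19, with overlap, by -0.26 ± 0.13 (SE).

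The remaining peroxisomal genes were not lower by the probe set that stood for them, or were too scattered to place. Pex11a, which acts in peroxisome division, differed by 0.16 ± 0.23 (SE), and the isomerase Eci2 by 0.02 ± 0.12 (SE). Acaa1a, a near copy of Acaa1b, differed by 0.06 ± 0.13 (SE), but its second probe set gave -0.24 ± 0.14 (SE), without overlap. Both Acaa1a probe sets carry the suffix _x_at. Abcd2, a transporter for very long chains, ran from 5.02 to 7.14 over the 6 arrays and differed by -0.36 ± 0.61 (SE).

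**Figure D2:**
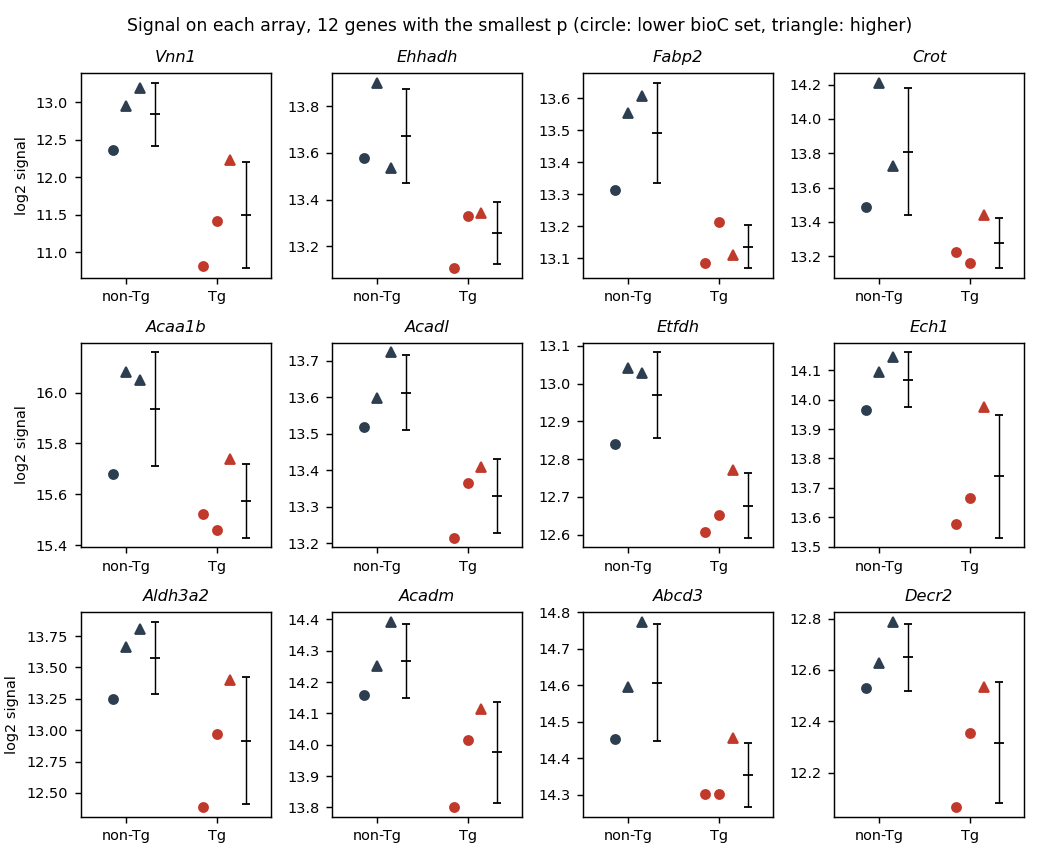
Log2 signal on each array for the 12 genes of the set with the smallest limma p, non-Tg mice on the left and Tg mice on the right of each panel. Circles are arrays of the lower and triangles of the higher bioC set, bars are mean and SD (n = 3), and each axis covers only its gene's range, so panels cannot be compared in size. In most panels Tg 7 is the highest Tg value, and non-Tg 1 the lowest non-Tg value.

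Acyl-CoA thioesterases release free fatty acids from acyl-CoA, and all 6 measured ones were below 0 over the 6 mice, with a median of -0.21. Without non-Tg 3, in which all 6 were highest, 3 of them turned (Acot1 to 0.08, Acot2 to 0.23 and Acot4 to 0.06), and the median was -0.062. The groups overlapped for all 6. Acot12, a cytosolic acetyl-CoA hydrolase, had 12.40, 12.50 and 12.90 in the non-Tg and 12.12, 12.25 and 12.43 in the Tg mice, by -0.33 ± 0.14 (SE; limma adjusted p = 0.807). Without non-Tg 3 Acot12 differed by -0.18, and a second probe set gave -0.30 ± 0.20 (SE). Acot8, a peroxisomal thioesterase, had 10.17, 10.31 and 10.38 against 9.79, 10.02 and 10.21, by -0.28 ± 0.15 (SE).

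Of the thioesterases, Acot1 to Acot4 had the larger errors, 0.20 to 0.33 (SE), against 0.14 and 0.15 for Acot12 and Acot8. Acot1, the cytosolic enzyme, had 11.47, 11.20 and 11.99 in the non-Tg and 11.22, 11.70 and 11.34 in the Tg mice, by -0.14 ± 0.20 (SE). For the peroxisomal Acot3 the signals were 10.72, 9.52 and 10.85 against 10.31, 9.87 and 9.58, by -0.45 ± 0.33 (SE). Acot4, also peroxisomal, differed by -0.12 ± 0.22 (SE) and Acot2, the mitochondrial one, by -0.02 ± 0.29 (SE). Acot1 to Acot4 are near copies of one another, and a probe set can read more than 1 of them.

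Ketone body metabolism was represented by 1 gene. Bdh1, which interconverts acetoacetate and beta-hydroxybutyrate, had 13.32, 13.37 and 13.52 in the non-Tg and 13.35, 12.73 and 13.07 in the Tg mice. Tg 5 lay within the non-Tg range, and the other 2 Tg mice lay below it, a difference of -0.35 ± 0.15 (SE; limma adjusted p = 0.807). Without Tg 6 it was -0.19, and a second probe set gave -0.15 ± 0.18 (SE).

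Among regulators, Ppara itself had 13.81, 13.71 and 13.78 in the non-Tg and 13.73, 13.57 and 13.81 in the Tg mice. The groups overlapped, and the difference was -0.07 ± 0.09 (SE; 95% confidence interval -0.27 to 0.14). Creb3l3, the transcription factor CREBH that acts with PPARA in fasting, was the 1 gene of the set that was higher at an unadjusted p under 0.05. Its signals were 13.15, 12.99 and 13.07 against 13.31, 13.24 and 13.29, without overlap, by 0.21 ± 0.09 (SE; limma adjusted p = 0.807). The coactivator Ppargc1a differed by 0.13 ± 0.27 (SE), and its 5 probe sets ran from -0.48 to 0.43.

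Other genes that PPARA is known to drive gave no common direction. Vnn1, a pantetheinase bound to the cell surface, had 12.36, 12.95 and 13.19 in the non-Tg and 10.82, 11.42 and 12.23 in the Tg mice. The groups did not overlap, and Vnn1 was 2.54-fold lower in Tg livers (95% confidence interval 1.54 to 4.17), which is -1.34 ± 0.32 on the log2 scale (SE; limma adjusted p = 0.653). This was the lowest adjusted p of the 48, and over 19 alternatives it ran from 0.119 to 0.996. Within the lower and higher bioC sets Vnn1 differed by -1.24 and -0.84, in the fit with the block by -1.04 (limma adjusted p = 0.269), and its second probe set gave -1.49 ± 0.34 (SE).

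Aldh3a2, the fatty aldehyde dehydrogenase, came next in size. Its signals were 13.25, 13.67 and 13.81 in the non-Tg and 12.38, 12.97 and 13.40 in the Tg mice, by -0.66 ± 0.23 (SE; limma adjusted p = 0.787). Tg 7 lay above non-Tg 1, so the groups overlapped. The fit with the block gave -0.46, and without Tg 5 the difference was -0.39.

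The secreted and fasting-induced genes of the set gave wide intervals. Angptl4, an inhibitor of lipoprotein lipase, differed by 0.27 ± 0.22 (SE), and Pdk4, which turns off pyruvate dehydrogenase, by -0.16 ± 0.38 (SE). Fgf21, a hormone released by the liver, had 6.82, 6.84 and 3.91 in the non-Tg and 6.76, 6.02 and 6.88 in the Tg mice. Its difference of 0.70 ± 0.79 (SE) came from the single low value in non-Tg 3, without which it was -0.28.

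The set as a whole separated the mice incompletely. As the median deviation of the 48 genes from their non-Tg means, non-Tg 1, non-Tg 2 and non-Tg 3 stood at -0.10, 0.02 and 0.10, and Tg 5, Tg 6 and Tg 7 at -0.26, -0.21 and -0.09. Tg 5 and Tg 6 lay below all non-Tg mice, while Tg 7 lay just above non-Tg 1. Of the 48 genes, 24 were highest in non-Tg 3, and 19 were lowest in Tg 5 and 15 in Tg 6. Among the 9 lower genes at an unadjusted limma p under 0.05 whose groups overlapped, non-Tg 1 was the lowest non-Tg value in all 9, and Tg 7 was the Tg value that reached it in 7.

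**Figure D3:**
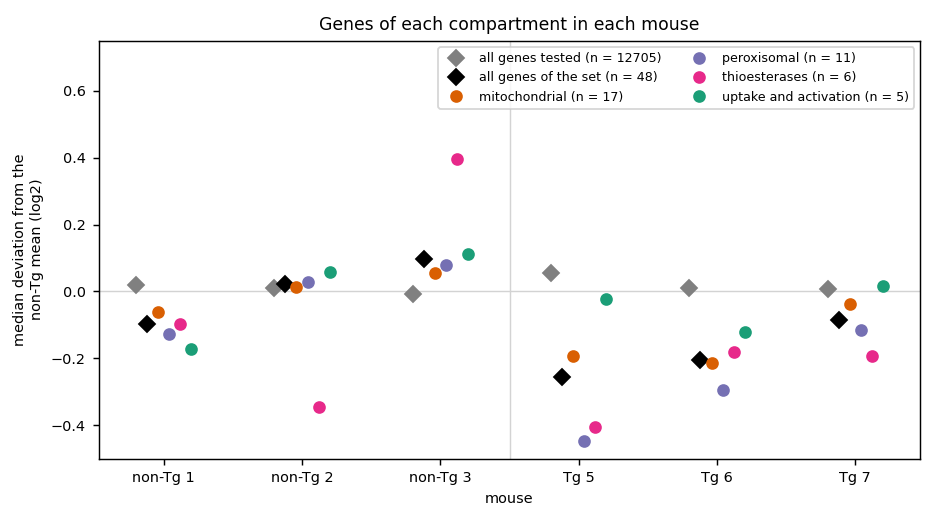
Median deviation from the non-Tg mean, on the log2 scale, in each mouse for all 12705 genes (grey diamonds), for the 48 genes (black diamonds) and for 4 compartments (circles). The 48 genes stand at -0.26 and -0.21 in Tg 5 and Tg 6 but at -0.09 in Tg 7, next to -0.10 in non-Tg 1, while all genes stay near 0.

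Within the bioC sets the comparison uses different mice, non-Tg 1 against Tg 5 and Tg 6 in the lower set, and non-Tg 2 and non-Tg 3 against Tg 7 in the higher one. The median over the 48 genes was -0.16 in the lower set and -0.14 in the higher one. Of the 48, 29 were lower in both sets (60.4%) and 7 higher in both, where 27.1% and 26.9% of all genes were. Among genes with a mean log2 signal over 12, 68.6% of those in the set and 40.1% of all were lower in both sets. Between the sets, the differences of the 48 genes had a Pearson r of -0.15 and a Spearman rho of 0.36. Over all genes these were 0.04 and 0.08. Of the 17 lower genes at an unadjusted limma p under 0.05, 16 were lower in both sets, and Cd36 was not. The 17 were picked as lower over the same 6 arrays that make up the sets. Their agreement is therefore partly fixed by the choice and adds no test, and the share among all genes picked alike was not computed. In the fit with the block 0 of the 48 passed (4 of 12705 genes, 0.0315%), 11 were lower and 1 higher at an unadjusted limma p under 0.05 (2.98% and 2.69% of all genes), and the median was -0.15.

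**Figure D4:**
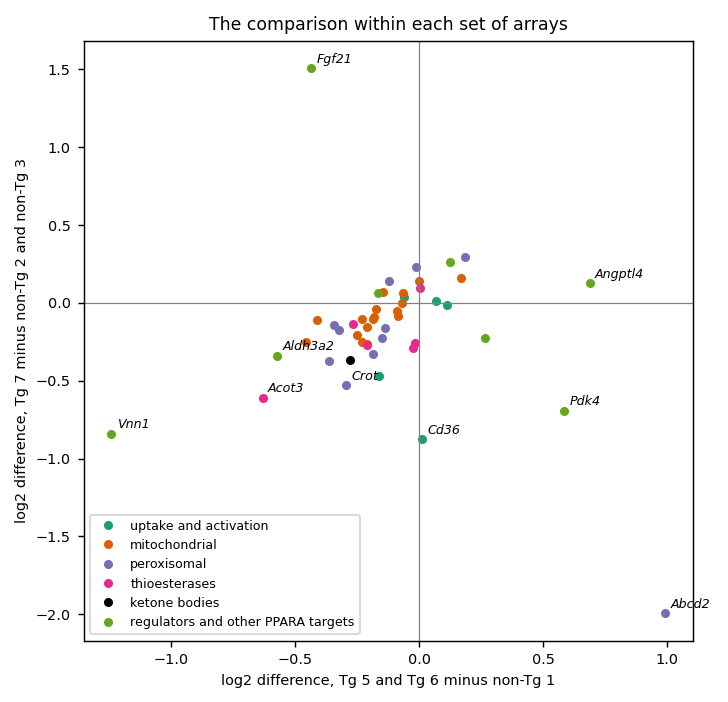
Log2 difference of each of the 48 genes within the lower bioC set (horizontal axis) and within the higher one (vertical axis), coloured by compartment. Points at the lower left, 29 genes, were lower in Tg livers in both sets, Vnn1 farthest out, while Abcd2, Pdk4, Fgf21 and Cd36 lie on opposite sides of 0 in the sets.

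Other probe sets bear on single genes. The 22 genes with further probe sets above the filter had 33 of them, of which 20 gave the same direction as the probe set that stood for the gene. For the genes at an unadjusted limma p under 0.05, 8 of 10 did, and the exceptions were the second probe sets of Etfdh and Abcd3.

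Other genes of the pathway, listed with earlier results of these data known, gave no call either (limma, 0 in each of 3 lists). Of 28 further enzymes and transporters of fatty acid breakdown 17 were lower, with a median of -0.04, and 2 were lower and 2 higher at an unadjusted limma p under 0.05 (3.12% and 2.93% of all genes). Acat1, the mitochondrial acetoacetyl-CoA thiolase, differed by -0.40 ± 0.11 (SE; limma adjusted p = 0.735) without overlap, and Acad11, an acyl-CoA dehydrogenase, by -0.26 ± 0.11 (SE). On the higher side, without overlap, were Acacb, at 0.76 ± 0.24 (SE), whose product malonyl-CoA restrains Cpt1a, and the mitochondrial thioesterase Acot9, at 0.62 ± 0.24 (SE).

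Of 16 further PPARA targets 9 were lower, with a median of -0.06, and 2 were lower and 1 higher at that p. Cyp4a14, a fatty acid omega-hydroxylase, differed by -2.11 ± 0.50 (SE; limma adjusted p = 0.653), and without Tg 5, in which it was 10.22 against 12.68 and 12.23 in Tg 6 and Tg 7, by -1.37 (limma adjusted p = 0.0158). Me1, malic enzyme, differed by -0.64 ± 0.19 (SE), and Plin5, a lipid droplet protein, by 0.82 ± 0.31 (SE), both with overlap. Among 9 receptor partners and relatives, 5 of them lower with a median of -0.08 and 1 at that p, Pparg differed by -0.84 ± 0.26 (SE; limma adjusted p = 0.735) without overlap, and Rxra, the partner of PPARA, by 0.01.

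Whole liver holds other cells, and in bulk RNA fewer cells of a type and less RNA per cell cannot be told apart. Hepatocyte markers, 8 of 9 listed, were all above the filter, 4 of them higher and 4 lower. Their summed signal (log2 of the sum) was 18.96 to 19.04 in Tg and 18.89 to 19.00 in non-Tg livers. Of these markers Tat was higher without overlap, by 1.12 ± 0.24 (SE; limma adjusted p = 0.468). Stellate cell markers were lower for 6 of 7 genes, with summed signals of 12.11 to 12.37 against 12.46 to 13.11, and erythroid markers were higher for 4 of 4, with 12.13 to 12.65 against 11.71 to 11.92. The median difference in the lower and higher bioC sets was -0.10 and -0.75 for stellate markers, and 1.08 and 0.24 for erythroid ones. Macrophage markers were higher for 8 of 8, but their summed signals overlapped, at 14.01 to 15.37 against 14.34 to 14.54, and their median difference was 0.58 in the lower and -0.41 in the higher bioC set. T or NK cell markers (5 of 6 higher, 9.94 to 10.55 against 9.42 to 9.99) and pancreas markers (4 of 4 higher, 11.32 to 11.90 against 10.72 to 11.67) also overlapped. So did the summed signals of bile duct (4 of 5 lower) and neutrophil markers (3 of 4 lower). Those of endothelial (5 of 7 higher), B cell (3 of 4 higher) and muscle markers (3 of 5 higher) overlapped too. The 4 measured adipocyte markers all lay under the filter. So did 4 of the muscle and 2 of the pancreas markers, which the counts above include. The counts also include 1 each of the stellate, erythroid, T or NK cell, bile duct and neutrophil markers under the filter. Whether any of these takes part in the differences above was not tested.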

How the data were processed

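The authors deposited log2 signals of 45101 probe sets on each of the 6 arrays. Per the submitters' processing notes GCOS, Affymetrix's array software, was used; the sources used here do not give its version, summary algorithm or target. The trimmed mean of the antilogged signals (2% left out at each end) is 500.0 on every array, so arrays were scaled before deposit. Arrays have no read depth, so their number sets the precision.

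After 64 control probe sets were set aside, 34945 of 45037 had 1 gene symbol in GEO's platform annotation, 932 several and 9160 none. Those with 1 symbol and a mean above the 40th percentile of all probe sets that are not controls (log2 5.63) were kept. The groups were compared with limma 3.58.1 (statmod 1.5.0, R 4.3.3), eBayes with an intensity trend, 2-sided, adjusted over 12705 genes at 0.05; each SE is the moderated one (4 residual degrees of freedom, 9.61 after moderation). Figures used matplotlib 3.10.9.

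The genes, compartments, lists and the bioC sets were chosen with earlier results of these data known. Signals are given on every array for Ppara, for the 3 genes of highest mean in each compartment of over 5 listed genes, and for every gene at an unadjusted p under 0.05 or without overlap; Fgf21 and Acot3 were added after their values were seen. Among the other pathway genes those at an unadjusted p under 0.05 are named, and Rxra was added. No test over a list was run. Alternatives were other filters, constants added before the log, normalizations, moderations, probe set rules, the block and leaving out each mouse.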

Additional observations from a re-analysis of the deposited data

How the results depend on the processing

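No paired analysis was possible because the groups share no replicate numbers (1 to 3 against 5 to 7). Over 19 alternatives, 6 of which leave out 1 mouse, the median of the 48 genes stayed below 0 and 0 of them passed the limma test. The cause of each change was not tested.

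Genes called over the whole array numbered 6 with the filter at the 20th percentile, 4 with 16 and 6 with 64 added before the log, 5 with centring, 4 with robust variance, 1 with the second probe set, 4 with the block for the bioC sets, and 2 to 3 without 1 mouse, against 2. The count of 17 lower genes at an unadjusted limma p under 0.05 was 3 without the intensity trend, 10 with the mean of probe sets, 11 with the second probe set, 11 with the block, and 4 to 21 without 1 mouse (4 without non-Tg 3). Centring moved the mitochondrial median to -0.23, and without 1 mouse the uptake median ran from -0.10 to -0.0040 and the thioesterase median from -0.30 to -0.062 (without non-Tg 3). Of the other pathway genes, 0 to 1 passed without 1 mouse (Cyp4a14, without Tg 5).

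Of 1081 single-gene log2 differences, 56 turned, in 21 genes. With array weights Acot2 stood at 0.029, Acsl5 at -0.0026, Eci2 at -0.024 and Slc27a2 at 0.0027. The block gave 0.070 for Acads, 0.051 for Acot2, 0.050 for Fabp1 and -0.038 for Hadha. Centring gave -0.015 for Acaa1a, -0.046 for Acsl5, -0.057 for Eci2 and -0.064 for Hadha. Quantile normalization gave 0.022 for Acads, 0.024 for Cpt2 and 0.029 for Fabp1. With the second probe set Abcd3 stood at 0.39, Acaa1a at -0.24, Acot4 at 0.32, Cpt2 at 0.82, Crat at 0.079, Etfdh at 0.46 and Ppara at 0.0066. The mean of probe sets gave 0.069 for Abcd3, -0.088 for Acaa1a, 0.10 for Acot4, 0.40 for Cpt2, 0.085 for Etfdh, 0.10 for Hadhb and 0.037 for Ppara.

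Without 1 mouse, Abcd2 ran from -0.75 to 0.27, Acaa1a from -0.0030 to 0.15, Acads from -0.094 to 0.085, Acot1 from -0.31 to 0.079, Acot2 from -0.22 to 0.24 and Acot4 from -0.29 to 0.056. Acsl5 ran from -0.045 to 0.10, Cpt2 from -0.067 to 0.046, Eci2 from -0.11 to 0.10, Fabp1 from -0.10 to 0.074, Fgf21 from -0.28 to 1.19 and Hadha from -0.045 to 0.094. Pdk4 ran from -0.49 to 0.015, Pex11a from -0.044 to 0.46, Ppargc1a from -0.052 to 0.33 and Slc27a2 from -0.025 to 0.023. Signals near the filter's level (log2 5.63), as for Fgf21 and Abcd2, leave the widest intervals.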

Other observations

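Probe sets that name more than 1 gene were left out of the comparisons above, and 3 of them name a gene of the set. Both probe sets shared by Acaa1b and Acaa1a were lower in every Tg than in every non-Tg mouse, by -0.35 and -0.28. Acaa1b differed by -0.36, and Acaa1a by 0.06, or by -0.24 with its second probe set. These values do not show which gene the shared signal follows. The probe set shared by Acot2 and Acot1 differed by -0.00, with overlapping groups. These 3 were not tested.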
